A study of Mus musculus with 9 samples.

Results

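Aminoacyl-tRNA synthetases are the enzymes that load each tRNA with its amino acid. The set described here holds 36 of the 26146 genes of the deposited expression table, 20 for the cytosolic enzymes and 16 for the mitochondrial ones, whose symbols end in 2. Members were taken by gene symbol, which found 35 of them, and the methionyl enzyme Mars was found by its gene ID because the table lists it as Mars1. The rule uses symbols only, though the set was picked with earlier results of these data known.

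Cytosolic and mitochondrial translation use separate tRNAs, and in mammals most amino acids have one nuclear gene for each compartment. Glycyl- and lysyl-tRNA synthetase are exceptions, since Gars and Kars each encode both forms, and mitochondria charge their glutamine tRNA indirectly, through a glutamyl enzyme and an amidotransferase. Several cytosolic synthetases sit in the multi-synthetase complex, and many genes for cytosolic synthetases are targets of ATF4, the transcription factor that is translated when amino acids are scarce or cells are stressed.

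Poly(A) RNA was sequenced from RAW264.7 cells, a mouse macrophage-like line, with 3 libraries in each of 3 groups called M, ET and Normal. Normal cells were untreated, and both other groups were given lipopolysaccharide (LPS), a component of the bacterial outer membrane sensed by Toll-like receptor 4, one of them together with an extract from Traditional Chinese Medicine. The labels contradict each other on which is which: by the columns that each sample points to, M is LPS plus extract and ET is LPS alone, and by the library names it is the reverse, so both groups carry the names of their columns here. The labels name no plant, dose or exposure time and do not say that replicates were separate cultures, so p-values measure the spread between libraries, which may be technical.

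Total counts lay between 57796361 and 60881764 in M, between 55039858 and 62962615 in ET and between 56921531 and 76242718 in Normal. All 36 members passed the filter of at least 1 FPKM (fragments per kilobase of transcript, scaled to the sequencing depth) in at least 3 of the 9 libraries, and the lowest count of any member in any library was 306, for Pars2. The first principal component of all tested genes took 90.5% of the variance and separated M and ET from Normal, while the second took 2.28%, with ET replicate 3 lying nearest to M among the ET libraries. All 6 macrophage markers looked for were present, with a summed level of 1329 to 1343 FPKM in M, 1474 to 1558 FPKM in ET and 1685 to 1794 FPKM in Normal. Of the fibroblast markers, 1 of 5 (Lum) averaged at least 1 FPKM, and their sum was 4.12 to 6.12 FPKM in M, 3.06 to 3.56 FPKM in ET and 0.00602 to 0.0460 FPKM in Normal. The endothelial markers likewise had 1 of 4 (Pecam1) at that level, with sums of 3.23 to 3.58 FPKM in M, 2.85 to 3.26 FPKM in ET and 0.780 to 0.953 FPKM in Normal. No lymphocyte, epithelial or erythroid marker in the expression table averaged 1 FPKM, but only 1 of 4 epithelial (Epcam) and 3 of 5 lymphocyte markers were in it. The 3 erythroid markers summed to 0.898 to 1.44 FPKM in M, 1.04 to 1.24 FPKM in ET and 0.0353 to 0.0937 FPKM in Normal, and the 3 lymphocyte markers in the table to 0.562 to 0.673 FPKM in M, 0.596 to 1.38 FPKM in ET and 0 to 0.268 FPKM in Normal. The part of these markers in the results was not tested, and in bulk RNA fewer cells of a type and less RNA per cell cannot be told apart.

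The balance between the compartments differed between treated and untreated cells. Summed over the 20 cytosolic members, the level was 1008 ± 1.19 FPKM in M, 1013 ± 19.1 FPKM in ET and 906 ± 18.4 FPKM in Normal (SD, n = 3 each). Summed over the 16 mitochondrial members it was 86.3 ± 2.01 FPKM in M, 86.1 ± 1.69 FPKM in ET and 115 ± 0.584 FPKM in Normal. The cytosolic sums of M and ET lay above every Normal library and the mitochondrial sums below every Normal library. Gars and Kars, which encode both forms, were counted as cytosolic only. Gars averaged 93.0 FPKM in M, 96.5 FPKM in ET and 78.4 FPKM in Normal, and Kars 46.5, 47.6 and 43.1 FPKM in the same order. How much of these transcripts serves mitochondria was not measured, so the sums compare lists of genes and not whole compartments.

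The ratio of the cytosolic to the mitochondrial sum was 11.5 to 12.0 in the M libraries, 11.5 to 12.1 in the ET libraries and 7.69 to 8.05 in the Normal libraries. On the log2 scale this ratio was higher than in Normal by 0.57 ± 0.03 in M and by 0.58 ± 0.04 in ET (pooled SD of single libraries within groups). A permutation of 3 libraries against 3 cannot give a p below 0.1, so no test is given for these sums. Both quantities were small parts of the libraries: cytosolic members held 0.506% of counts in M, 0.506% in ET and 0.467% in Normal, and mitochondrial members held 0.0521% in M, 0.0526% in ET and 0.0712% in Normal.

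**Figure D1:**
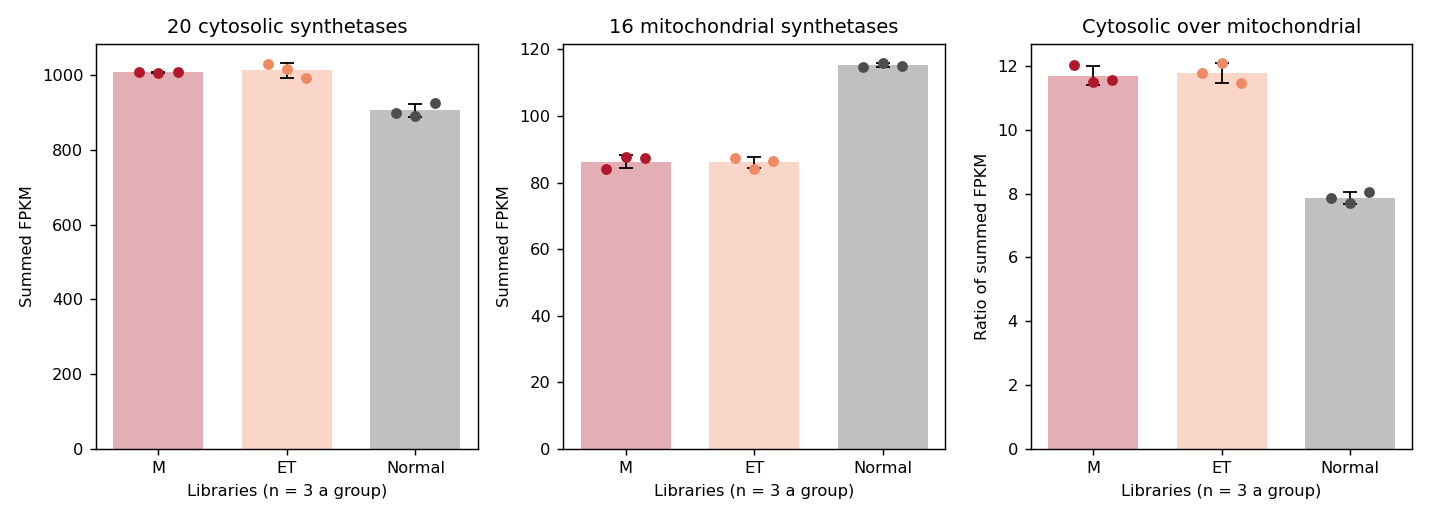
Summed FPKM of the 20 cytosolic synthetases, of the 16 mitochondrial synthetases, and their ratio, with points for single libraries, bars for group means and error bars for the SD (n = 3). The ratio averages 11.7 in M, 11.8 in ET and 7.86 in Normal, since the cytosolic sum is higher and the mitochondrial sum lower in M and ET.

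Single members spanned a wide range of levels, which the plot of FPKM by member shows on a log axis. Among cytosolic enzymes the mean level ran from Cars (cysteine) to Gars (glycine), at 14.2 to 93.0 FPKM in M and 14.9 to 96.5 FPKM in ET. In Normal cells it ran from Cars to Vars (valine), at 12.4 to 93.2 FPKM. Mitochondrial enzymes ran from Mars2 (methionine) to Yars2 (tyrosine), at 1.69 to 13.6 FPKM in M and 1.72 to 14.8 FPKM in ET, and from Mars2 to Iars2 (isoleucine), at 2.46 to 15.1 FPKM, in Normal. All 20 cytosolic means lay above the highest mitochondrial mean in M and in ET, and 19 of 20 did in Normal, where Cars was the exception.

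**Figure D2:**
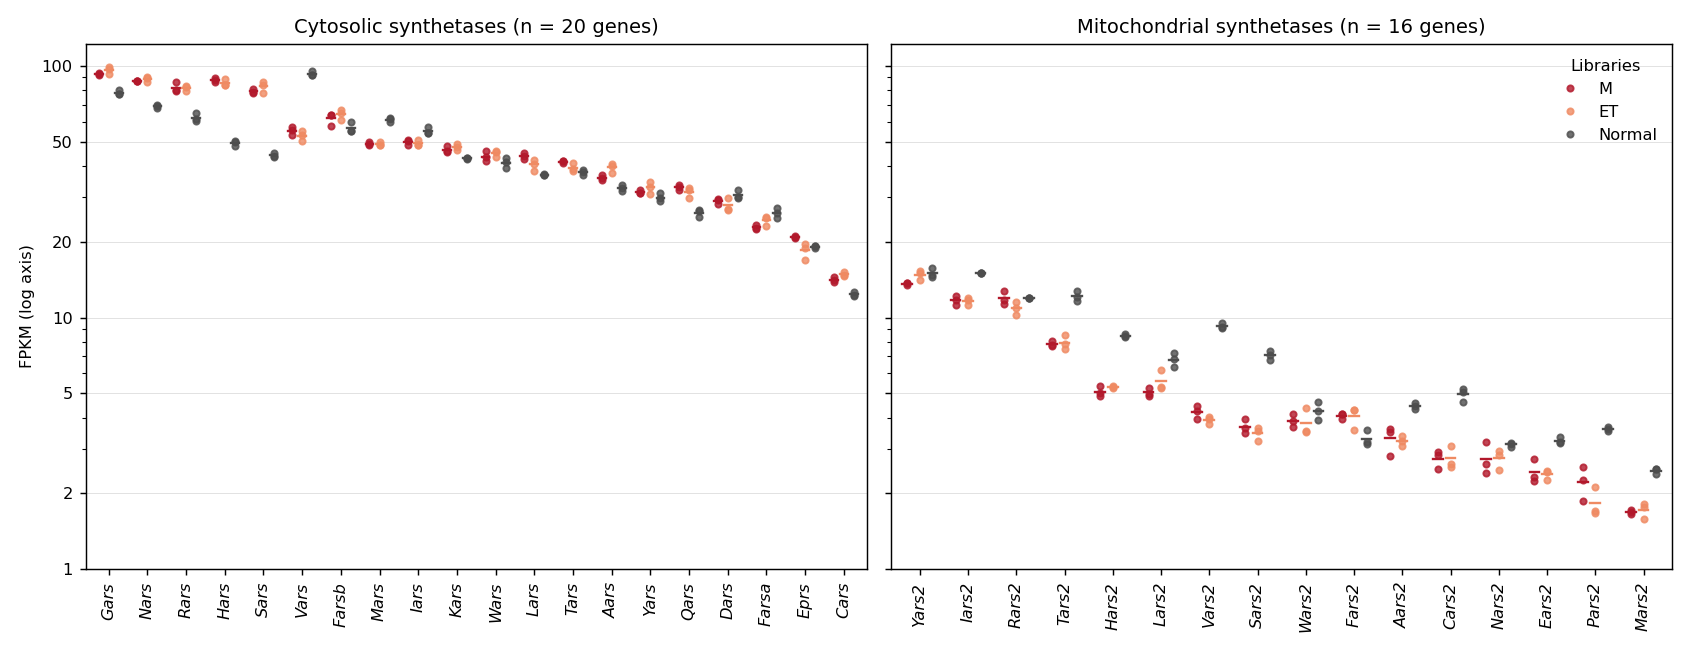
FPKM of every member in every library on a log axis, ordered by mean level within each compartment, with a bar at each group mean (n = 3). Sars and Hars stand higher in M and ET than in Normal, and Vars, Vars2 and Sars2 stand lower.

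Most cytosolic synthetase transcripts were higher in treated than in untreated cells. Counts were tested with edgeR's quasi-likelihood test in one fit of all 9 libraries, with Benjamini-Hochberg adjustment over 11536 genes and a threshold of 0.05. Between M and Normal, 15 of 20 cytosolic members rose, 2 fell and 3 did not pass. Over all genes tested, 70.0% passed, 35.5% as higher and 34.5% as lower in M. The median log2 change was 0.22 over cytosolic members and -0.01 over all genes tested. Between ET and Normal, 14 rose, 3 fell and 3 did not pass, against a background of 70.2% called, 35.0% higher and 35.2% lower in ET. The median log2 change there was 0.22 over cytosolic members and -0.02 over all genes. The comparisons share the Normal libraries, so their values are given side by side and are not independent of each other. With libraries scaled by total counts only, 12 rose and 4 fell between M and Normal and 13 rose and 4 fell between ET and Normal, while 41.2% of all genes were called lower in M and 41.3% in ET.

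Sars, which charges serine tRNA and also puts the serine on selenocysteine tRNA, had the largest rise of the set. Its level was 78.8, 81.2 and 78.3 FPKM in M, 84.1, 86.7 and 77.9 FPKM in ET and 45.0, 43.5 and 43.7 FPKM in Normal. All 6 treated libraries were far above all 3 Normal ones, and M and ET overlapped. The log2 change of Sars was 0.94 ± 0.04 (SE, edgeR adjusted p = 4.07e-10) in M and 0.99 ± 0.04 (adjusted p = 2.5e-10) in ET.

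Its promoter window is shown because no other member rose as much. RefSeq's table (assembly GRCm38.p6) gives 250 bases before and 50 bases from the transcript start, here chr3:108445210-108445509 on the minus strand, and none of the 4 motifs searched for in all windows was found in it. Sars itself is listed at chr3:108424865-108445209 in the expression table, for which no genome build is stated. These listed coordinates equal those of Sars in GENCODE M21 (GRCm38). Read on that build, the window ends where the listed gene begins and holds none of its bases.
Sars promoter: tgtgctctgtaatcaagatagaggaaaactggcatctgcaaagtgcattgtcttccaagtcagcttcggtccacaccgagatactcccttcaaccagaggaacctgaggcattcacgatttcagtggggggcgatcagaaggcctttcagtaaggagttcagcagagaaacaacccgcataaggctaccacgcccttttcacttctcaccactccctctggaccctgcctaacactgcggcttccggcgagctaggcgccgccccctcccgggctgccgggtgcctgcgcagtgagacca

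Hars, the histidine enzyme, followed closely. It stood at 88.1, 89.2 and 86.0 FPKM in M, 88.7, 83.8 and 84.3 FPKM in ET and 50.3, 48.2 and 49.7 FPKM in Normal, again with no overlap between treated and untreated libraries. Hars had a log2 change of 0.92 ± 0.04 (SE, edgeR adjusted p = 2.75e-10) in M and 0.87 ± 0.04 (adjusted p = 4.59e-10) in ET. Hars lies at chr18:36766528-36783205 on the minus strand and its mitochondrial partner Hars2 at chr18:36783008-36792562 on the plus strand, head to head with 198 shared bases. Over the 9 libraries Hars averaged 74.2 FPKM and Hars2 6.28 FPKM, and because no strand setting is stated for the authors' counting, reads from the shared bases cannot be told apart.

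Rars (arginine) and Qars (glutamine), both of the multi-synthetase complex, and Nars (asparagine) were the other members among the top 4 rises in M or in ET. Rars was at 86.3, 80.4 and 79.2 FPKM in M, 83.1, 79.7 and 82.8 FPKM in ET and 61.5, 60.6 and 65.0 FPKM in Normal. Its log2 change was 0.48 ± 0.04 (SE, edgeR adjusted p = 6.06e-07) in M and 0.47 ± 0.04 (adjusted p = 7.86e-07) in ET, and every treated library was above every Normal one. Qars was at 32.9, 33.8 and 32.1 FPKM in M, 32.1, 32.7 and 29.9 FPKM in ET and 25.1, 26.7 and 26.5 FPKM in Normal. The treated libraries of Qars again did not reach down to Normal, and its log2 change was 0.42 ± 0.04 (SE, edgeR adjusted p = 1.34e-06) in M and 0.35 ± 0.04 (adjusted p = 8.2e-06) in ET. Nars was at 86.8, 87.3 and 87.2 FPKM in M, 90.2, 86.6 and 89.3 FPKM in ET and 69.4, 67.8 and 69.9 FPKM in Normal. The libraries of Nars were close together within each group and far apart between treated and Normal, with a log2 change of 0.42 ± 0.03 (SE, edgeR adjusted p = 9.77e-08) in M and 0.44 ± 0.03 (adjusted p = 6.87e-08) in ET.

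The remaining rises are given by their log2 changes. Gars rose by 0.33 in M and 0.38 in ET, Lars (leucine, in the complex) by 0.33 in M and 0.21 in ET, and Cars by 0.28 in M and 0.34 in ET. Aars (alanine) rose by 0.22 in M and 0.35 in ET, Tars (threonine) by 0.22 in M and 0.14 in ET, and Kars (lysine, in the complex) by 0.20 in M and 0.22 in ET. Farsb, the beta subunit of the phenylalanine enzyme, rose by 0.21 in M and 0.26 in ET. Wars, the tryptophan enzyme and a known interferon-induced gene in human cells, rose by 0.17 in M and 0.20 in ET, and Yars (tyrosine) by 0.17 in M and 0.21 in ET. Eprs, the bifunctional glutamyl-prolyl enzyme of the complex, rose by 0.22 in M, and in ET its log2 change was 0.03 (edgeR adjusted p = 0.638). With libraries scaled by total counts, Farsb, Wars and Yars no longer passed in M (log2 0.12, 0.08 and 0.07), nor did Tars in ET (log2 0.06).

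Vars, the valine enzyme, went against most of the cytosolic members. It was the most abundant synthetase transcript in Normal cells and stood at 52.9, 55.6 and 57.4 FPKM in M, 53.3, 55.0 and 50.2 FPKM in ET and 92.0, 92.0 and 95.8 FPKM in Normal. All treated libraries were below all Normal ones. Vars fell by 0.67 ± 0.04 on the log2 scale (SE, edgeR adjusted p = 1.22e-08) in M and by 0.74 ± 0.04 (adjusted p = 4.32e-09) in ET. Its gene is at chr17:35000987-35016322, on the same chromosome as its mitochondrial partner Vars2.

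Mars, the methionine enzyme of the complex, was at 48.4, 50.0 and 49.1 FPKM in M, 49.7, 48.4 and 48.3 FPKM in ET and 61.6, 59.9 and 62.3 FPKM in Normal. Mars fell by 0.23 ± 0.03 on the log2 scale (SE, edgeR adjusted p = 5.42e-05) in M and by 0.25 ± 0.03 (adjusted p = 2.38e-05) in ET, with all treated libraries below all Normal ones. Mars shares 68 bases with Ddit3 on the opposite strand, a gene whose log2 change was 1.08 in M and 1.23 in ET, and reads in that stretch cannot be told apart.

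Iars, Farsa and Dars had changes close to 0 whose calls moved with the setting. Iars (isoleucine, in the complex) had a log2 change of -0.06 (edgeR adjusted p = 0.121) in M and fell by 0.09 (adjusted p = 0.0388) in ET, a call that was lost with relative log expression factors, with DESeq2, in a fit of 2 groups (log2 -0.09, adjusted p = 0.0646) and without any one of M replicates 2 and 3, ET replicates 1 and 3 and each Normal replicate. Farsa, the alpha subunit of the phenylalanine enzyme, had a log2 change of -0.10 (edgeR adjusted p = 0.0584) in M and -0.02 (adjusted p = 0.693) in ET, while its partner subunit Farsb passed as higher in both. With libraries scaled by total counts, Iars (log2 -0.16, edgeR adjusted p = 0.00164) and Farsa (log2 -0.19, adjusted p = 0.00167) passed as lower in M, and so did both with limma on log2 FPKM. Farsa in M also passed as lower in a fit of 2 groups (log2 -0.10, edgeR adjusted p = 0.0391), without ET replicate 3 (log2 -0.10, adjusted p = 0.0402) and without Normal replicate 2 (log2 -0.13, adjusted p = 0.0362). Dars (aspartate, in the complex) was at 28.3, 29.3 and 29.6 FPKM in M, 26.8, 27.1 and 29.8 FPKM in ET and 29.9, 30.1 and 32.0 FPKM in Normal. The groups of Dars lay close together. In FPKM every treated library was below every Normal one. The log2 changes rest on counts scaled with edgeR's TMM factors, in which M and ET overlapped Normal for Dars. These factors, not applied to the printed FPKM, were 0.971 to 0.987 in M and ET and 1.036 to 1.045 in Normal. The log2 change of Dars was 0.01 ± 0.05 (SE, edgeR adjusted p = 0.86) in M and -0.06 ± 0.05 (adjusted p = 0.279) in ET. Dars in ET passed as lower with total counts (log2 -0.14, edgeR adjusted p = 0.0203) and without ET replicate 3 (log2 -0.099, adjusted p = 0.0443), and also with limma on log2 FPKM (log2 -0.13 with 1 added, adjusted p = 0.026).

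Split by the known complex, 5 of 8 complex members rose, 1 fell and 2 did not pass in M, with a median log2 change of 0.21, and 4 rose, 2 fell and 2 did not pass in ET, with a median of 0.12. Of the 12 cytosolic enzymes outside it, 10 rose, 1 fell and 1 did not pass in M and likewise in ET, with medians of 0.22 in M and 0.30 in ET. Of all genes tested, 35.5% were called higher and 34.5% lower in M, and 35.0% higher and 35.2% lower in ET. The difference between the complex and the free enzymes was not tested. By structural class, 6 of 9 cytosolic class I enzymes (with the Rossmann-fold catalytic domain) rose and 2 fell in M, and 6 rose and 3 fell in ET. Of 10 cytosolic class II enzymes, 8 rose and 0 fell in M and in ET at an edgeR adjusted p of 0.05, against the same shares of all genes. The difference between the classes was not tested either. The bifunctional Eprs was counted in neither class.

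**Figure D3:**
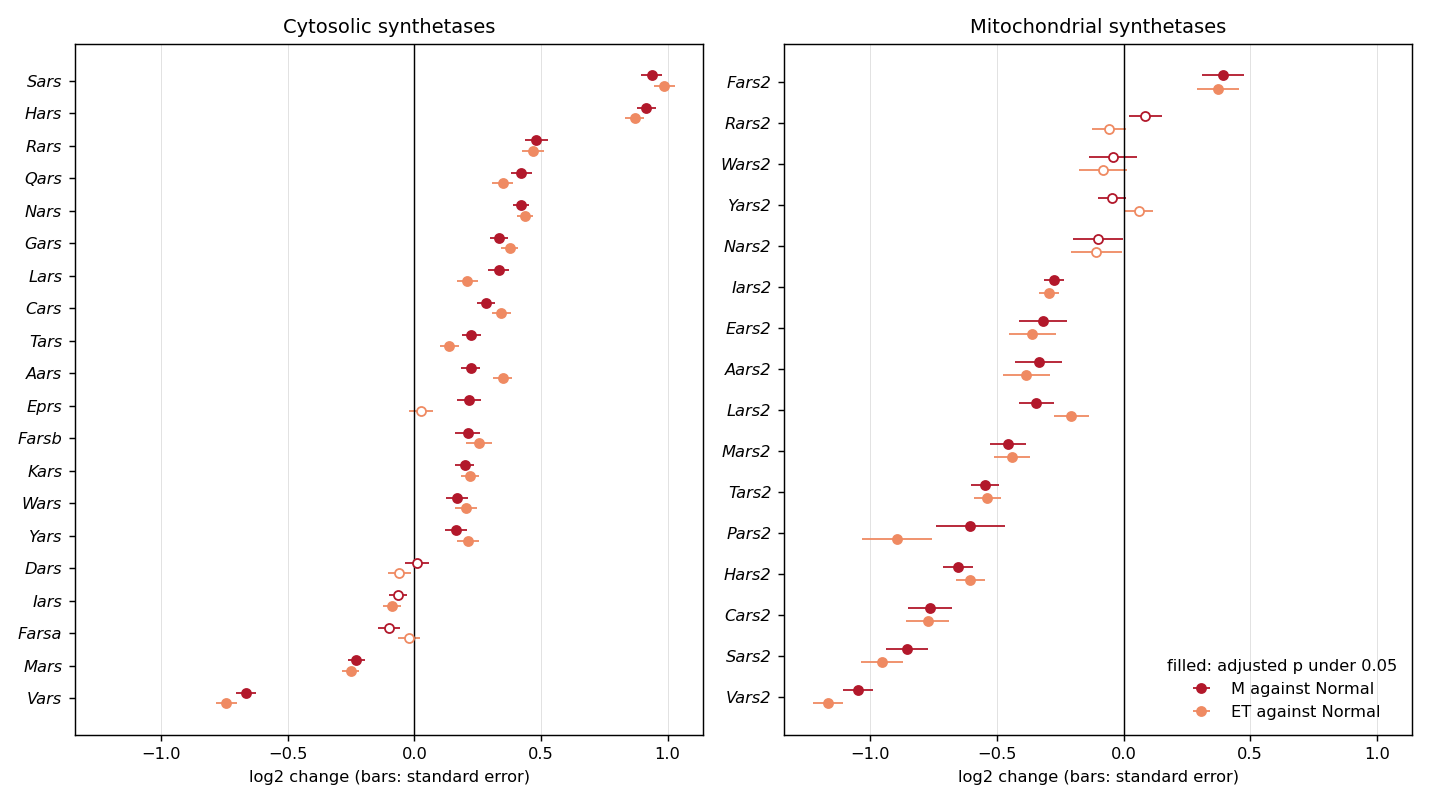
Log2 change of each member between M and Normal and between ET and Normal from the edgeR fit, with bars for the standard error and filled points for an adjusted p under 0.05. Most cytosolic points lie right of 0 with Sars and Hars farthest, Vars stands at -0.67 in M and -0.74 in ET, and most mitochondrial points lie left of 0 apart from Fars2.

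Mitochondrial synthetase transcripts were mostly lower in treated cells. Between M and Normal, 11 of 16 fell, 1 rose and 4 did not pass, with a median log2 change of -0.34. Between ET and Normal the counts were also 11 lower, 1 higher and 4 not called, with a median of -0.37. Of all genes tested, 34.5% were called lower in M and 35.2% in ET. On TMM-scaled counts, all 3 M libraries lay below all 3 Normal ones for 11 mitochondrial members and above them for 1, where 74.8% of all genes tested had no overlap, 37.5% wholly below and 37.3% wholly above. In ET these counts were 10 below and 1 above, where 73.2% of all genes had no overlap, 37.1% wholly below and 36.1% wholly above.

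Vars2, the mitochondrial valine enzyme, had the largest fall of the set. It stood at 3.96, 4.44 and 4.25 FPKM in M, 3.96, 4.01 and 3.77 FPKM in ET and 9.11, 9.20 and 9.54 FPKM in Normal. Every treated library held less than every Normal library by a wide margin. The log2 change of Vars2 was -1.05 ± 0.06 (SE, edgeR adjusted p = 7.06e-09) in M and -1.17 ± 0.06 (adjusted p = 2.59e-09) in ET, so that both enzymes that charge valine fell. Vars2 shares 4734 bases on the opposite strand with Gm20483, a gene absent from the expression table, and reads from that stretch cannot be told apart.

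The RefSeq window of Vars2 is printed as that of the member with the largest fall. It spans chr17:35667543-35667842 (GRCm38.p6, minus strand), and none of the 4 motifs searched was found in it.
Vars2 promoter: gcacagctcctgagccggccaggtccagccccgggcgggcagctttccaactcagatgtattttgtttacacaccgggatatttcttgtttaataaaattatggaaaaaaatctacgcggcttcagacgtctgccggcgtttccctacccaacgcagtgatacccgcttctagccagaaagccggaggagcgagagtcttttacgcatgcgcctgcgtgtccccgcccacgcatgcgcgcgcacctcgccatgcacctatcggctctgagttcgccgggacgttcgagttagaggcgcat

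Sars2 (serine) moved opposite to its cytosolic partner. It was at 3.46, 3.65 and 3.93 FPKM in M, 3.53, 3.64 and 3.23 FPKM in ET and 6.79, 7.35 and 7.13 FPKM in Normal. The groups of treated and Normal libraries did not overlap, and the log2 change of Sars2 was -0.86 ± 0.08 (SE, edgeR adjusted p = 1.07e-06) in M and -0.95 ± 0.08 (adjusted p = 3.88e-07) in ET. Cars2 (cysteine) was at 2.49, 2.84 and 2.91 FPKM in M, 2.62, 3.08 and 2.56 FPKM in ET and 4.63, 5.06 and 5.22 FPKM in Normal. All treated libraries were again below Normal, with a log2 change of -0.76 ± 0.09 (SE, edgeR adjusted p = 4.9e-06) in M and -0.77 ± 0.09 (adjusted p = 4.35e-06) in ET. Cars2 shares 984 bases with Naxd on the opposite strand, which averaged 5.22 FPKM over the 9 libraries, and reads from that stretch cannot be told apart.

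Pars2 (proline), the member with the fewest reads, was at 2.55, 1.87 and 2.26 FPKM in M, 2.12, 1.68 and 1.71 FPKM in ET and 3.53, 3.62 and 3.67 FPKM in Normal. Its libraries scattered more within M and ET than within Normal, yet none reached the Normal level. Pars2 had a log2 change of -0.61 ± 0.14 (SE, edgeR adjusted p = 0.00168) in M and -0.89 ± 0.14 (adjusted p = 8.26e-05) in ET. Proline in the cytosol is charged by the bifunctional member Eprs, and Pars2 was not paired with it here.

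Hars2 (histidine) fell by 0.65 in M and 0.60 in ET on the log2 scale, at 4.86, 5.33 and 5.03 FPKM in M, 5.28, 5.25 and 5.32 FPKM in ET and 8.40, 8.41 and 8.63 FPKM in Normal. Hars and Hars2 moved in opposite directions, with the limit that reads from their 198 shared bases cannot be assigned.

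The other mitochondrial falls were Tars2 (threonine), by 0.55 in M and 0.54 in ET, and Mars2, by 0.46 in M and 0.44 in ET. Aars2 (alanine) fell by 0.34 in M and 0.38 in ET, Ears2 (glutamate) by 0.32 in M and 0.36 in ET, and Iars2 by 0.28 in M and 0.29 in ET. Iars2 shares 2034 bases on the opposite strand with Rab3gap2, which averaged 15.2 FPKM over the 9 libraries against 12.8 FPKM for Iars2, so reads from that stretch cannot be told apart. Lars2 (leucine) fell by 0.35 in M and 0.21 in ET. The ET call of Lars2 (edgeR adjusted p = 0.0171) was lost without ET replicate 1 (log2 -0.16), without ET replicate 2 (log2 -0.17) and without Normal replicate 1 (log2 -0.15).

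Fars2, the single-chain mitochondrial phenylalanine enzyme, was the one mitochondrial member that passed as higher. It was at 4.12, 4.15 and 3.97 FPKM in M, 4.29, 4.29 and 3.58 FPKM in ET and 3.15, 3.20 and 3.57 FPKM in Normal. M libraries were clear of Normal, while ET replicate 3 and Normal replicate 3 nearly met. Fars2 had a log2 change of 0.39 ± 0.08 (SE, edgeR adjusted p = 0.001) in M and 0.37 ± 0.08 (adjusted p = 0.00145) in ET. Fars2 overlaps Lyrm4 by 115 bases on the opposite strand, a gene that averaged 9.22 FPKM against 3.81 FPKM for Fars2, and reads from these bases cannot be told apart.

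Nars2 (asparagine), Rars2 (arginine), Wars2 (tryptophan) and Yars2 did not pass in either comparison. Nars2 had a log2 change of -0.10 in M and -0.11 in ET, where the M value was -0.016 without M replicate 2 and -0.22 without M replicate 3 (edgeR adjusted p = 0.0503), and Wars2 of -0.04 in M and -0.08 in ET. Rars2 was at 11.8, 12.8 and 11.3 FPKM in M, 11.5, 10.2 and 10.9 FPKM in ET and 12.0, 12.0 and 11.9 FPKM in Normal, with a log2 change of 0.09 ± 0.07 (SE, edgeR adjusted p = 0.267) in M and -0.06 ± 0.07 (adjusted p = 0.449) in ET. Yars2 was at 13.7, 13.8 and 13.4 FPKM in M, 15.1, 14.1 and 15.2 FPKM in ET and 15.7, 14.7 and 14.5 FPKM in Normal, with a log2 change of -0.05 ± 0.06 (SE, edgeR adjusted p = 0.477) in M and 0.06 ± 0.06 (adjusted p = 0.343) in ET. Yars2 in M passed as lower with total counts (log2 -0.14, edgeR adjusted p = 0.0383) and with limma on log2 FPKM (log2 -0.12 with 1 added, adjusted p = 0.0276). On TMM-scaled counts the M and the ET libraries of Rars2 and Yars2 overlapped Normal. In FPKM, all ET libraries of Rars2 and all M libraries of Yars2 lay below Normal. For both genes the sign of the log2 change differed between M and ET without either value passing. By class, 6 of 9 mitochondrial class I enzymes fell and 0 rose in M and in ET at the adjusted threshold of edgeR. Of 7 class II enzymes, 5 fell and 1 rose in M and in ET, against 34.5% of all genes called lower in M and 35.2% in ET, and the difference between the classes was not tested.

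For 14 amino acids a cytosolic enzyme was set against its mitochondrial partner within each library, with Farsa standing for the phenylalanine enzyme, which has 2 cytosolic genes. Ears2 and Pars2, whose cytosolic counterpart is the bifunctional Eprs, were not paired. For each pair the log2 ratio of cytosolic to mitochondrial FPKM, with 1 added to each value, was compared between the 6 treated and the 3 Normal libraries by an exact two-sided permutation test, a contrast that does not depend on which treated group had the extract. Of 14 pairs, 10 had a higher ratio in treated cells, 1 had a lower one and 3 did not pass at a Benjamini-Hochberg adjusted p of 0.05. In each of those 11 pairs the treated and Normal libraries did not overlap, the exact p was 0.0238, the smallest the design can give, and the adjusted p was 0.0303. Of all single genes tested, 74.8% had no overlap between M and Normal and 73.2% between ET and Normal. The share among other pairs of genes was not computed, so these counts cannot be called particular to the synthetases. Over all 14 pairs the median difference was 0.47.

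The serine pair differed the most. Its log2 ratio was 4.16, 4.14 and 4.01 in M, 4.23, 4.24 and 4.22 in ET and 2.56, 2.41 and 2.46 in Normal, a difference of 1.69. As plain FPKM ratios, Sars exceeded Sars2 by 21.6-fold in M and 23.9-fold in ET, against 6.23-fold in Normal. The histidine pair came next, with a difference of 1.42 and plain ratios of 17.3 in M, 16.2 in ET and 5.83 in Normal. In both pairs the cytosolic gene was higher and the mitochondrial gene lower in treated cells.

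The difference was 0.89 for the cysteine pair, 0.66 for threonine, 0.55 for alanine, 0.49 for leucine, 0.49 for asparagine and 0.45 for arginine. It was 0.25 for valine, where both genes fell and Vars2 fell further, and 0.19 for isoleucine. The phenylalanine pair ran the other way, at -0.37 with Farsa as its cytosolic gene. With Farsb instead, a choice made after seeing the data, the difference was -0.09 (exact permutation test, p = 0.0714, adjusted p = 0.0769), the treated and Normal libraries overlapped, and 10 of 14 pairs passed. For methionine the difference was 0.04 (exact permutation test, adjusted p = 0.19), for tryptophan 0.22 (adjusted p = 0.0769) and for tyrosine 0.17 (adjusted p = 0.0556). The added value damps changes of low genes such as Mars2: with 0.1 in place of 1 the methionine difference was 0.18 (exact permutation test, adjusted p = 0.0278).

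**Figure D4:**
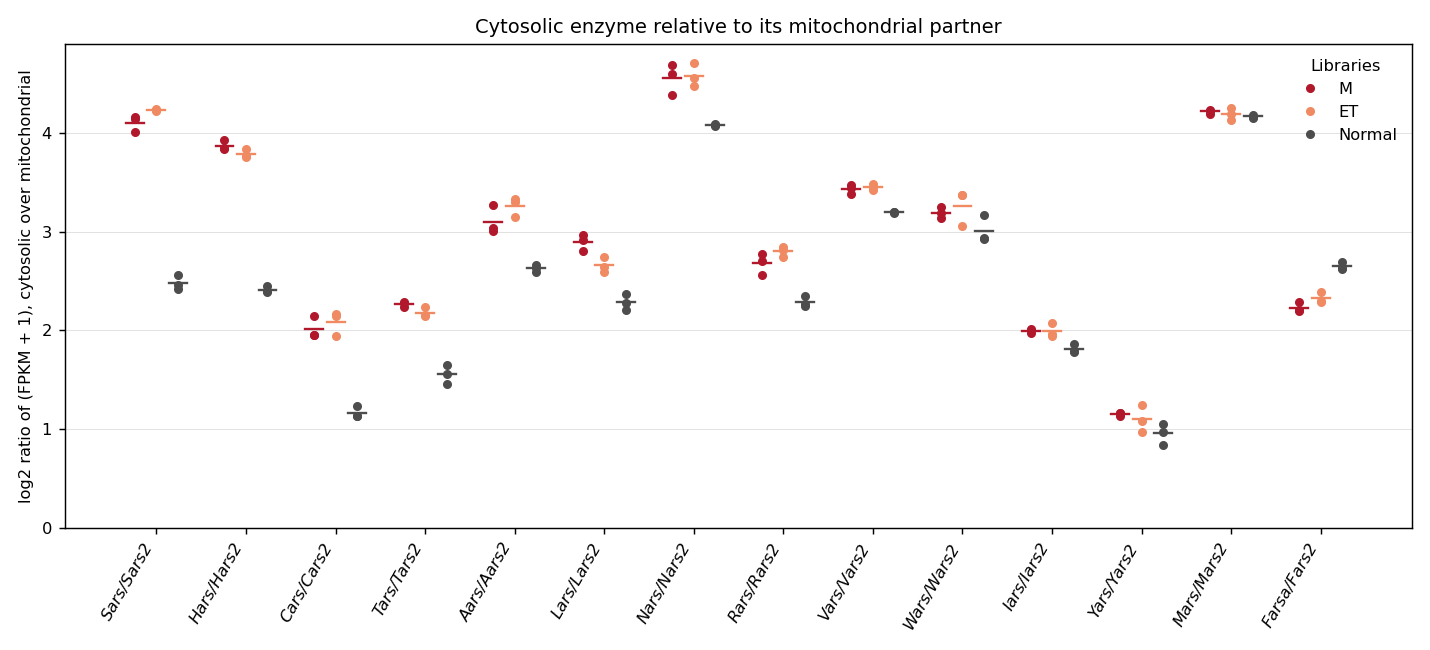
Log2 ratio of the cytosolic to the mitochondrial enzyme, from FPKM plus 1, for each of 14 pairs in each library, with a bar at each group mean (n = 3). The serine and histidine pairs show the widest gap between treated and Normal libraries, and in the phenylalanine pair, drawn with Farsa, M and ET lie below Normal.

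Between M and ET, few differences passed. Of 36 members, 1 passed, as higher in M, against 9.08% of all genes tested, 4.97% as higher and 4.12% as lower. The M libraries lay wholly above the ET libraries for 4 members and wholly below for 2, where 28.7% of all genes had no overlap in either direction. The log2 changes lay between -0.13 and 0.19 for cytosolic and between -0.14 and 0.29 for mitochondrial members. The member that passed was Eprs, at 20.7, 20.9 and 21.1 FPKM in M, 18.8, 17.0 and 19.6 FPKM in ET and 19.3, 18.9 and 19.2 FPKM in Normal. All M libraries of Eprs lay above all ET and Normal ones, while ET and Normal overlapped. The log2 change of Eprs between M and ET was 0.19 ± 0.05 (SE, edgeR adjusted p = 0.0279). That call was lost with limma on log2 FPKM (adjusted p = 0.0594 with 1 added and 0.0654 with 0.1 added), without a filter on low values, and without any one of M replicates 1, 2 and 3 and ET replicates 1 and 2, where the log2 change lay between 0.13 and 0.20. Without ET replicate 3, which lies nearest to M, Lars (log2 0.15, adjusted p = 0.0258) and Aars (log2 -0.16, adjusted p = 0.0102) passed as well. With all libraries Lars was at 0.12 (edgeR adjusted p = 0.0869) and Aars at -0.13 (adjusted p = 0.0575). Under the other reading of the labels these values keep their size and are those of the opposite treatments.

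Promoter windows from RefSeq (GRCm38.p6) were matched for 27 of 36 members, 13 cytosolic and 14 mitochondrial, by symbol. No window was matched for Cars, Hars, Lars, Nars, Rars, Vars, Wars, Hars2 and Pars2. Windows are placed by RefSeq starts, which are not always those of the genes as listed. Like that of Sars, the windows of Dars, Kars and Tars2 hold no base of the listed gene, if the builds are the same. Those of Aars and Qars then lie wholly inside it. Searched on both strands were TGATGNAA, the core of the element that ATF4 binds together with C/EBP proteins, CACGTG, the E-box, CCGGAAGT, an ETS-type motif, and an NRF1-type motif. TGATGNAA was in 5 of 13 cytosolic windows (38.5%), those of Aars, Gars, Iars, Tars and Yars, and in 0 of 14 mitochondrial ones. It was in 2.69% of the 8267 tested genes with a window and in 4.51% of all 27025 genes with one. These matches are a description of letters in a window and not of binding.

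For each of these genes, 1 stretch around a TGATGNAA match is shown because this motif was found in cytosolic windows and in 0 mitochondrial ones. Each is 30 bases, turned so that the match reads TGATGNAA, with the match in capitals. For Aars the stretch is chr8:111033840-111033869, on the minus strand, with a match that begins 9 bases after the start base. A second Aars match, TGATGCAA, begins 112 bases before the start, in chr8:111033719-111033748 (minus strand), and is not shown. For Gars it is chr6:55037960-55037989 (minus strand, 30 before the start), for Iars chr13:49682126-49682155 (minus strand, 7 after), for Tars chr15:11399655-11399684 (plus strand, 15 before) and for Yars chr4:129189895-129189924 (plus strand, 3 after). Positions count from the RefSeq start, which can differ from the start of the gene as listed. The listed gene begins at chr8:111033144 for Aars and at chr4:129189760 for Yars. If the builds are the same, the Aars and Yars matches lie inside the listed gene.
Aars: tcagagcgctcTGATGAAAagtgacccgct
Gars: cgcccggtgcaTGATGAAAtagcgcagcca
Iars: gcgtctggaggTGATGCAAtactgacagtg
Tars: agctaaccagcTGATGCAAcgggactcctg
Yars: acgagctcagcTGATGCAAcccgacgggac

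Of these 5 genes, Aars, Gars, Tars and Yars rose in M and in ET. Iars did not pass in M and was called lower in ET (log2 -0.09, edgeR adjusted p = 0.0388), a call lost under several settings. Among all 20 cytosolic members, 15 rose in M and 14 in ET, a share near that of these 5. Over all genes tested, 35.5% were called higher in M and 35.0% in ET. Whether the motif goes with the changes was not tested. Sars, which rose the most, had no match in its window, but that window holds no base of the gene as listed, read on GRCm38. Matches after the listed start of Sars would therefore not be seen.

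The E-box was in 4 of 13 cytosolic windows (Aars, Farsb, Iars and Tars) and in 1 of 14 mitochondrial ones (Ears2), against 12.4% of tested genes and 8.09% of all genes with a window. The NRF1-type motif was in 3 cytosolic windows (Farsb, Kars and Tars) and in 2 mitochondrial ones (Iars2 and Mars2), against 12.9% of tested and 5.19% of all genes. CCGGAAGT was in 2 cytosolic windows (Farsa and Mars) and in 1 mitochondrial one (Rars2), against 10.5% of tested and 4.31% of all genes. The Tars window is printed whole because it held 3 of the 4 motifs. It spans chr15:11399609-11399908 on the minus strand, and its capitals mark, in order, an NRF1-type match, the TGATGNAA match read on the other strand, and an E-box directly followed, without overlap, by a second NRF1-type match on the other strand.
Tars promoter: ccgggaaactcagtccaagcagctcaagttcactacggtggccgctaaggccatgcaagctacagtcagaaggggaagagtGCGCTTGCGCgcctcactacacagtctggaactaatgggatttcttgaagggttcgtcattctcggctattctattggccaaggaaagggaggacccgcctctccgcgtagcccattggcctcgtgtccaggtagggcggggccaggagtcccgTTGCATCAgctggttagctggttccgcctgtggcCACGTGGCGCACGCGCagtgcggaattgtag

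Companion genes of tRNA charging were looked at by compartment and role. Shares of all genes called are given with the counts. The scaffold proteins of the multi-synthetase complex, Aimp1, Aimp2 and Eef1e1, all 3 rose in M (background 35.5%) and 1 of 3 rose in ET (background 35.0%), a share near the background. Eef1e1 had 20.2 ± 0.878 FPKM in M, 20.8 ± 1.19 FPKM in ET and 14.9 ± 0.713 FPKM in Normal (SD, n = 3 each), a log2 change of 0.52 in M and 0.56 in ET. In mitochondria, Gatb, Gatc and Qrsl1 form the amidotransferase that makes glutaminyl-tRNA, and Mtfmt formylates the initiator methionyl-tRNA. All 4 fell in M (background 34.5%) and 3 of 4 in ET (background 35.2%), with Qrsl1 at log2 -0.60 in M and -0.46 in ET and Gatb at -0.56 in M and -0.47 in ET.

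Of 3 genes that clear mischarged or D-aminoacyl tRNA, 2 fell in M and in ET, against 34.5% of all genes in M and 35.2% in ET. Aarsd1, an alanyl editing enzyme, had a log2 change of -1.14 in M and -1.20 in ET, and Dtd1, the D-aminoacyl-tRNA deacylase, of -0.23 in M and -0.22 in ET. Xpot, which exports tRNA from the nucleus, fell by 0.17 in M and 0.19 in ET, against the same shares of all genes. Of the selenocysteine pathway pair Pstk and Sepsecs, neither passed in M, where 70.0% of all genes did. Pstk fell in ET, against 35.2% of all genes.

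Elongation factors take the charged tRNA to the ribosome or move the ribosome along. Of 5 cytosolic factors, 3 fell in M and 2 in ET and 0 rose at an edgeR adjusted p of 0.05, where 34.5% of all genes fell in M and 35.2% in ET, so that the share in ET is near the background. Eef1a1 had a log2 change of -0.07 in M and -0.23 in ET. Of 4 mitochondrial factors, Tufm and Tsfm fell in M and in ET, and Tsfm had a log2 change of -0.46 in M and -0.35 in ET. Gfm1 rose in M (log2 0.11, edgeR adjusted p = 0.0196) and was at 0.06 in ET (adjusted p = 0.174). Gfm2 rose in ET (log2 0.15, edgeR adjusted p = 0.0225) and was at 0.10 in M (adjusted p = 0.104). With 1 of 4 higher and 2 of 4 lower in each comparison, these shares too were not far from the background. Of all genes, 35.5% rose in M and 35.0% in ET.

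Among 11 genes of the amino acid response, 8 rose and 2 fell in M and 9 rose and 2 fell in ET. Of all genes, 35.5% were called higher and 34.5% lower in M, and 35.0% higher and 35.2% lower in ET. Slc7a11, the cystine transporter subunit, had a log2 change of 2.93 in M and 3.08 in ET, Trib3, a pseudokinase induced by ATF4, of 2.33 in M and 2.61 in ET, and Asns, asparagine synthetase, of 0.52 in M and 0.61 in ET. Psat1, an enzyme of serine synthesis, and Eif2ak4, the kinase that senses uncharged tRNA, were the 2 that fell. Atf4 itself had a log2 change of 0.04 (edgeR adjusted p = 0.363) in M and 0.19 (adjusted p = 0.000246) in ET.

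Between M and ET, 3 companion genes passed, 2 of 11 in the amino acid response and 1 of 5 cytosolic elongation factors. Over all the companion lists together this share was near the 9.08% of all genes that passed. Atf4 (log2 -0.16, edgeR adjusted p = 0.0149) and Slc3a2, a subunit of amino acid transporters (log2 -0.20, adjusted p = 0.02), were lower in M, and Eef1a1 was higher in M (log2 0.16, adjusted p = 0.00113).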

How the data were processed

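Per the file headers, the deposited table holds a count and an FPKM value for each gene in each library, both computed by the authors. The counts are whole numbers. Per the submitters' processing notes, cutadapt 1.9, HISAT2 2.2.1, StringTie 2.1.6, DESeq2 and edgeR were used. No source used here names the counting tool, the strand setting or the genome build. Gene coordinates equalled GENCODE M21 (GRCm38) for 23547 of 26146 genes (90.1%).

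The test filter kept 11536 genes, those reaching 1 FPKM in 3 or more libraries. They were tested on counts with edgeR 4.0.16 in R 4.3.3, with TMM factors and a single quasi-likelihood fit of the 3 groups, and adjusted by Benjamini-Hochberg at 0.05. Enzyme pairs were tested with scipy 1.17.1. Alternatives used limma 3.58.1, DESeq2 1.42.0, other scalings and filters, and left out each library. The edgeR fit was tested on simulated data with 200 of 11536 genes changed, in M only. In the real data 70.0% of genes were called between M and Normal, so that simulation cannot check the scaling used here.

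The members and lists were chosen with earlier results of these data known. All 36 members are named. By rule, full statistics are given for the top 4 rises and top 4 falls in each comparison and for members whose sign differed between M and ET. Statistics for Mars, Fars2, Eprs and Hars2 were added after their values were seen. Some items are not reported here.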

Additional observations from a re-analysis of the deposited data

How the results depend on the processing

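In the comparisons with Normal, the counts of higher cytosolic and of higher and lower mitochondrial members stayed within 1.5 times the reported ones under every alternative run. Lower cytosolic members between M and Normal numbered 4 with total counts only and with limma on log2 FPKM with 1 or 0.1 added, where Farsa and Iars passed as well. Between M and ET, the count of higher cytosolic members was 0 with limma at either added value and without a filter, and 0 to 2 when a library was left out. The count of lower ones was 1 (Aars) with total counts only and with DESeq2, and 0 to 1 when a library was left out. The log2 change of the compartment ratio was 0.67 in M and 0.77 in ET with medians in place of sums. Called enzyme pairs numbered 12 with 0.1 added, 10 with Farsb in place of Farsa, a choice made after seeing the data, and 0 to 13 when a library was left out: 0 without any one Normal replicate, since 6 against 2 libraries cannot pass the threshold.

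Reversals of sign touched only values that did not pass, among the members tested. Dars in M was -0.082 with total counts only, -0.074 and -0.076 with limma at 1 and 0.1 added, and -0.0090 without a filter. Rars2 in M was -0.0066, -0.0028 and -0.0032 with total counts and limma at 1 and 0.1. In the same order of settings, Eprs in ET was -0.052, -0.050 and -0.052, and Yars2 in ET was -0.017, -0.014 and -0.015. With a library left out, Wars2 in M ranged from -0.097 to 0.022, Yars2 in M from -0.067 to 0.0011, Eprs in ET from -0.010 to 0.087 and Farsa in ET from -0.044 to 0.027. The cause was not tested. Total counts only moved the median log2 change of all genes to -0.10 in M and in ET.

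Libraries with the same replicate number did not deviate together (r between -0.05 and 0.08). With the replicate number as a block, 15 cytosolic members were higher and 2 lower between M and Normal. Low mitochondrial levels limit precision: standard errors reached 0.14 for Pars2. Leaving out a library leaves 2 in its group, which are assumed to vary like the others.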
